A study of Mus musculus with 14 samples.

Results

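Genes for water, potassium and glutamate handling and for cell coupling in astrocytes were described in mouse spinal cord: Aqp4, Kcnj10, Slc1a2, Slc1a3, Glul, Aldh1l1, Gja1, Gjb6, Atp1b2 and Sox9. They are the rows of the deposited table whose gene name is one of these symbols, 10 of 56748 genes, and all 10 passed the filter on low values that left 15155 genes for testing. Poly(A) RNA of whole cord tissue was sequenced in 14 libraries of 4 groups. AstroCSF1KO SCI (n = 4) had an astrocyte deletion of Csf1 and a spinal cord injury 7 days earlier, AstroCSF1KO uninjured (n = 3) had the deletion alone, Control SCI (n = 4) had the injury alone, and Control uninjured (n = 3) had neither. Injured tissue was taken around the lesion and uninjured tissue from the matching level. Csf1 encodes colony-stimulating factor 1, a growth factor for microglia and macrophages. The labels do not give strain, age, the driver of the deletion or the deleted exons, and no label says whether replicates were separate animals, so p-values measure the spread between these samples, which may be technical in part. In each group some libraries expressed the Y-linked gene Ddx3y and others had it at 0. The replicates of a group thus did not all come from the same animal.

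Astrocytes clear potassium, glutamate and water from around neurons and pass ions and metabolites to each other. Aquaporin-4 (Aqp4) is their water channel and is concentrated in the endfeet on blood vessels, the inward rectifier Kir4.1 (Kcnj10) takes up potassium, the transporters GLT-1 (Slc1a2) and GLAST (Slc1a3) take up glutamate, and glutamine synthetase (Glul) turns it into glutamine. Connexin 43 (Gja1) and connexin 30 (Gjb6) form their gap junctions, Atp1b2 is a beta subunit of the sodium pump, and Aldh1l1, a folate enzyme, and the transcription factor Sox9 are used as astrocyte markers. After injury astrocytes become reactive, with more of the filament protein GFAP.

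RefSeq promoter sequences were at hand for 7 of the 10 genes, and the table used has no entry for Aqp4, Atp1b2 and Sox9. The 250 bases before the start site are shown for Gja1 and Glul, the only members with an entry that passed the test after injury in AstroCSF1KO cords, as given below. They were read from GRCm38.p6 at chr10:56377050-56377299 (plus strand) and chr1:153899679-153899928 (plus strand), and capitals mark matches to TTGGC, the core that NFI factors bind.
Gja1: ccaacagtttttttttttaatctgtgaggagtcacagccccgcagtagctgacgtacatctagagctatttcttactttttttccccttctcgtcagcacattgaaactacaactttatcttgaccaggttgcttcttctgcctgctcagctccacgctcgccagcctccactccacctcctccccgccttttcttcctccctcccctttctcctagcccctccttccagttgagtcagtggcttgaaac
Glul: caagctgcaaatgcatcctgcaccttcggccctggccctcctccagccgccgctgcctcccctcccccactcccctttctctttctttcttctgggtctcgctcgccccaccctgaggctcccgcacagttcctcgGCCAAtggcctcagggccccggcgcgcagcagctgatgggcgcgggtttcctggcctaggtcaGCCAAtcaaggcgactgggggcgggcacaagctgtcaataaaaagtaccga
Both strands were searched for TTGGC, for the SOX motif AACAAT and for TTC and GAA set 3 bases apart, a STAT motif, with no overlap between the motifs. TTGGC was found in 3 of the 7 promoters (Glul, Kcnj10 and Slc1a2) and in 41.5% of 32851 promoters of the same length. The STAT motif was found in 1 of the 7, Slc1a3, against 7.02% of all promoters, and AACAAT in 0 of the 7, against 9.42%. These matches describe letters only. The bases just after the start site were found in a GENCODE M21 transcript of the gene for Aldh1l1, Gjb6, Kcnj10 and Slc1a2. They were not found for Gja1, Glul and Slc1a3, so the start sites of the sequences shown rest on RefSeq alone.

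Depth was 13263610 to 21969581 recovered reads per library, and the members had between 276 (Aldh1l1) and 56878 (Slc1a2) reads in any library. Csf1, the targeted gene, had 16.4 to 19.9 FPKM (fragments scaled to gene length and to sequencing depth) in AstroCSF1KO SCI and 8.23 to 11.02 FPKM in AstroCSF1KO uninjured libraries, against 7.95 to 18.3 FPKM in Control SCI and 4.24 to 12.2 FPKM in Control uninjured libraries. Other cells of the tissue also make Csf1, and the genotypes below rest on the labels. In 3 control libraries (SCI replicates 1 and 4, uninjured replicate 1), 19474 to 22054 genes were detected, against 24791 to 26333 in the other 11, and mitochondrial reads were 6.73 to 13.9%, against 3.38 to 5.78%. In 4 AstroCSF1KO libraries (SCI replicates 2, 3 and 4, uninjured replicate 3), rRNA genes held 2.89 to 3.99% of reads, against 0.290 to 0.764% in the other 10. Without the 3 control libraries, Csf1 had 8.23 to 11.02 FPKM in AstroCSF1KO uninjured libraries, against 11.9 and 12.2 FPKM in Control uninjured ones. The log2 difference was -0.28 ± 0.13 (adjusted p 0.391 by limma), in place of 0.16 ± 0.39 with all libraries. In injured cords the 16.4 to 19.9 FPKM of Csf1 in AstroCSF1KO enclosed the 17.6 and 18.3 FPKM of Control libraries (0.04 ± 0.09, adjusted p 0.910, in place of 0.49 ± 0.26). Ddx3y was at 0 in those Control uninjured libraries and at 13.3 and 11.2 FPKM in AstroCSF1KO uninjured replicates 1 and 2. The part of sex in these differences was not tested. Because the tissue is whole cord, fewer astrocytes and less RNA per astrocyte cannot be told apart.

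Levels of the 10 genes spanned more than an order of magnitude in FPKM, which is scaled to gene length. Glul, Atp1b2, Kcnj10, Slc1a2 and Aqp4 held the upper places in every group, Gja1 and Gjb6 came next, and Slc1a3, Aldh1l1 and Sox9 were lowest. In AstroCSF1KO uninjured cords the order of mean levels was Glul (416 ± 29.2 FPKM, SD, n = 3), Atp1b2 (351 ± 35.2), Kcnj10 (162 ± 6.92), Slc1a2 (142 ± 7.17), Aqp4 (84.3 ± 9.86), Gjb6 (34.7 ± 2.56), Gja1 (34.3 ± 2.11), Aldh1l1 (16.5 ± 1.14), Slc1a3 (14.4 ± 1.84) and Sox9 (8.89 ± 0.391). The library ranges of Glul and Atp1b2, of Gjb6 and Gja1, and of Aldh1l1 and Slc1a3 overlapped there, so these neighbours were not ordered beyond their spread. Aqp4 was the third of the 10 genes in all 4 AstroCSF1KO SCI libraries and the fifth in all 3 AstroCSF1KO uninjured libraries. In Control SCI libraries it ranged from the first to the third place and in Control uninjured libraries from the third to the fifth.

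**Figure D1:**
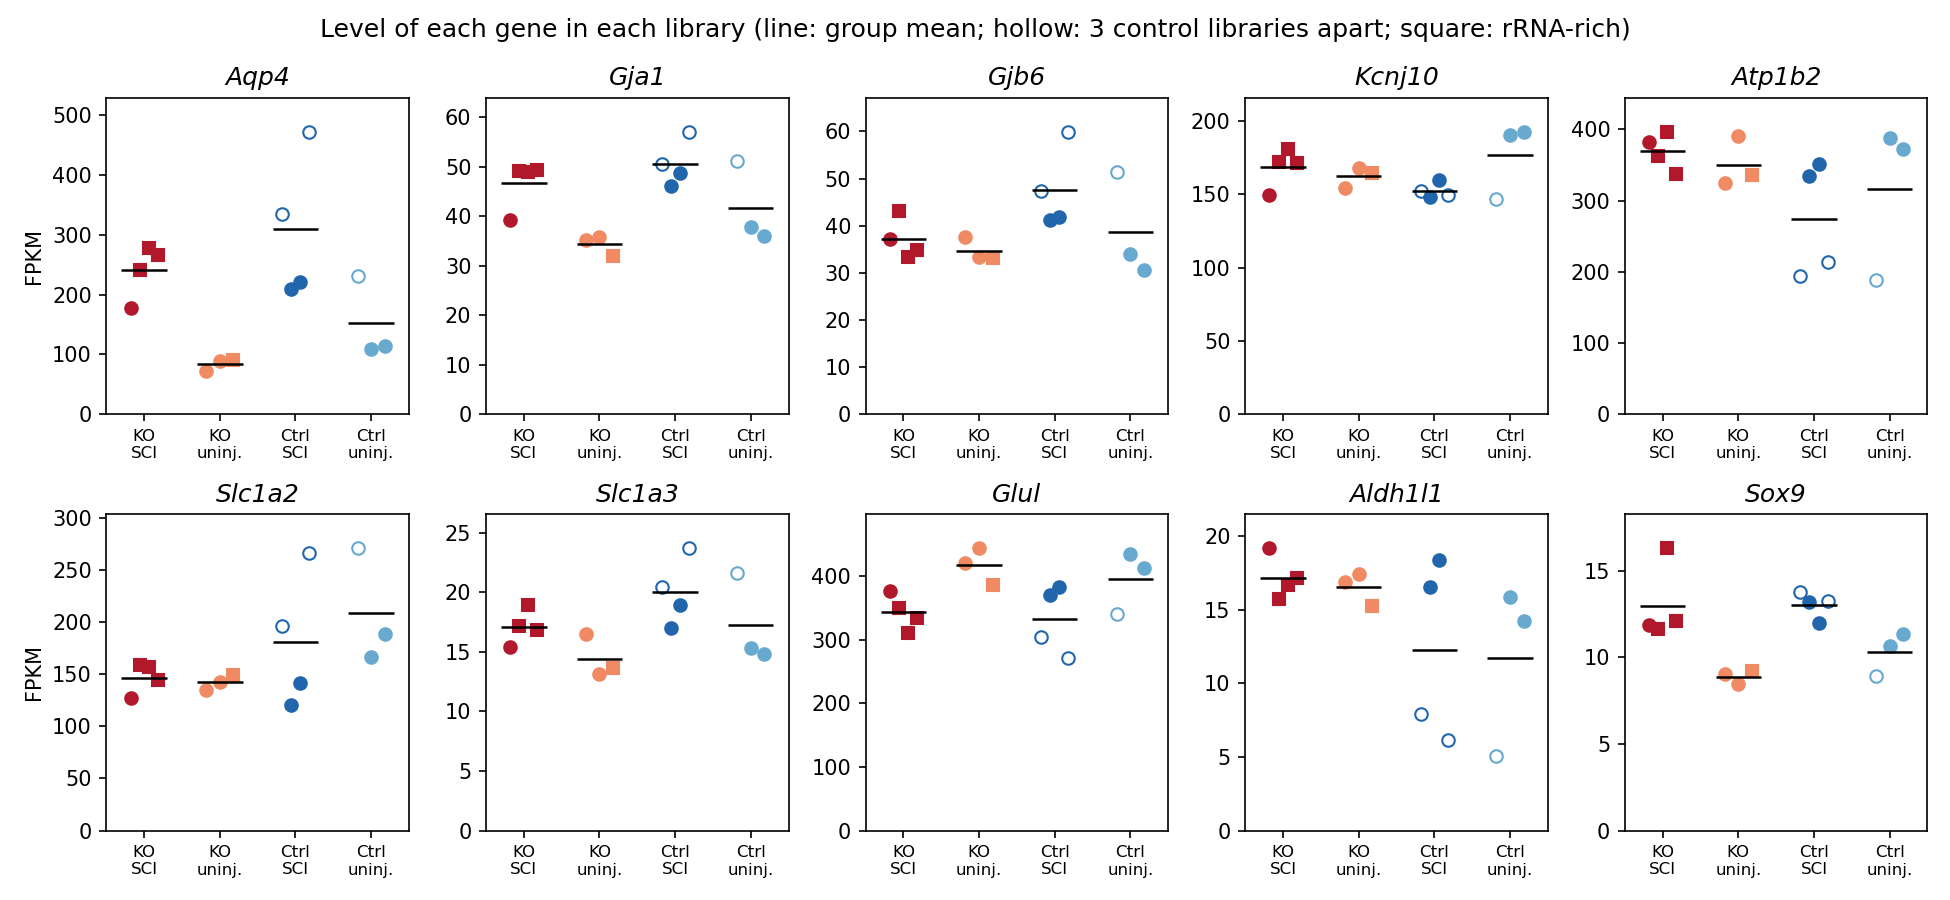
Level in FPKM (y axis) of each of the 10 genes in each library, with groups on the x axis, AstroCSF1KO (KO) left of control (Ctrl) and SCI left of uninjured. Lines are group means, hollow points are the 3 control libraries that stand apart and squares the 4 rRNA-rich libraries. Aqp4 lies between 177 and 277 FPKM in AstroCSF1KO SCI and between 73.0 and 90.6 FPKM in AstroCSF1KO uninjured libraries, and the hollow points lie at the low end for Aldh1l1 and Atp1b2.

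After injury, AstroCSF1KO cords had a higher FPKM of the water channel Aqp4, the connexin Gja1 and the transcription factor Sox9. The FPKM of glutamine synthetase was lower, in a call that was lost under several alternatives. In the model of all 14 libraries the calls of Gja1 (adjusted p 0.148 by limma) and Sox9 (0.0563) were also lost. The potassium channel, the glutamate transporters, connexin 30, the pump subunit and Aldh1l1 did not pass the test. Calls are at an adjusted p under 0.05 by limma on log2(FPKM + 1), with Benjamini-Hochberg adjustment over all 15155 genes. In the AstroCSF1KO injury comparison 45.8% of all genes were called, 19.7% higher and 26.1% lower, and 4 of the 10 members were called, 3 higher and 1 lower. The members' share is thus near that of all genes, of which 50.7% had groups that did not overlap. In the Control injury comparison 1.04% of all genes and 0 of the 10 members were called, 1 member (Aqp4) having an unadjusted p under 0.05, as 9.61% of all genes had, and 0 being called by voom. Without the 3 control libraries, which leaves 2 libraries a group, 23.9% of all genes and 1 member, Aqp4, were called. The median log2 change of the members was 0.08 in AstroCSF1KO cords, against -0.03 over all genes, and 0.14 in Control cords, against -0.05.

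**Figure D2:**
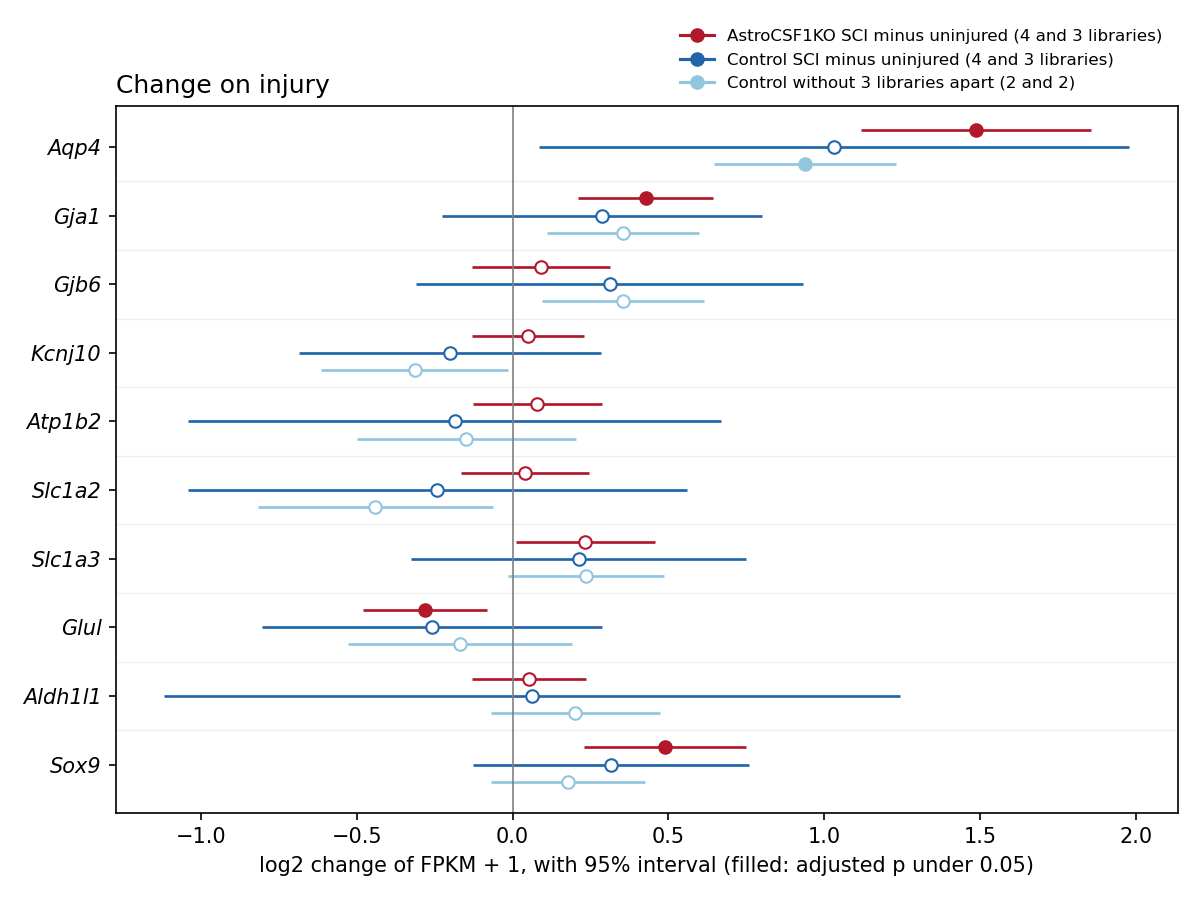
Log2 change of FPKM + 1 on injury (x axis) for each gene (y axis), in AstroCSF1KO cords, in Control cords, and in Control cords without 3 libraries. Bars are 95% intervals and filled points have an adjusted p under 0.05. Aqp4 is filled in AstroCSF1KO cords (1.49) and in Control cords without the 3 libraries (0.94), and the intervals of the full Control comparison are the widest for Aldh1l1 and Aqp4.

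Aqp4 (ENSMUSG00000024411, chromosome 18, 15522553 to 15544039, minus strand, mm39) had 177, 242, 277 and 266 FPKM in AstroCSF1KO SCI libraries, against 73.0, 89.4 and 90.6 FPKM in AstroCSF1KO uninjured libraries. Every injured library was above every uninjured one. The log2 change was 1.49 ± 0.16 (SE, limma), 2.80-fold, with an adjusted p of 0.000224. The injured library that was not rRNA-rich had 177 FPKM, against 73.0 and 89.4 FPKM in the uninjured ones of its kind. The rRNA-rich injured libraries had 242 to 277 FPKM, against 90.6 FPKM. The part of the rRNA share was not tested. In Control cords Aqp4 had 335, 210, 221 and 472 FPKM in SCI libraries, against 232, 109 and 114 FPKM in uninjured ones. The groups overlapped through uninjured replicate 1, one of the 3 libraries that stand apart, which was higher than the injured replicates 2 and 3. The log2 change was 1.03 ± 0.40, with an adjusted p of 0.450 by limma. Without the 3 libraries the values were 210 and 221 FPKM in Control SCI, against 109 and 114 FPKM in Control uninjured, a log2 change of 0.94 ± 0.11 with an adjusted p of 0.0111. In those 4 libraries sex went with injury, since both injured ones expressed the Y-linked gene Ddx3y (11.8 and 13.8 FPKM) and both uninjured ones expressed Xist (15.2 and 20.6 FPKM) with Ddx3y at 0. Sex and injury cannot be told apart there, nor in any other Control change given without the 3 libraries.

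Of the gap junction genes, Gja1 was called in AstroCSF1KO cords and Gjb6 was not, and the difference between them was not tested. Gja1 (ENSMUSG00000050953, chromosome 10, 56253426 to 56278609, plus strand, mm39) had 39.2, 49.2, 48.9 and 49.4 FPKM in AstroCSF1KO SCI libraries, against 35.3, 35.8 and 31.9 FPKM in uninjured ones. The groups did not overlap, and the log2 change was 0.43 ± 0.09 with an adjusted p of 0.00700 by limma. The smallest injured value belonged to the library that is not rRNA-rich. That library, with 39.2 FPKM, stood closer to the 35.3 and 35.8 FPKM of the 2 uninjured libraries of its kind than the rRNA-rich injured ones, with 48.9 to 49.4 FPKM, did to their 31.9 FPKM. With only the 7 libraries that belong to neither set, the injured AstroCSF1KO group is this library of 39.2 FPKM alone, and the change was 0.14. Whether the rRNA share had a part in it was not tested. In Control cords Gja1 had 50.6, 46.1, 48.8 and 57.1 FPKM after injury, against 51.2, 37.8 and 36.0 FPKM in uninjured cords, a log2 change of 0.29 ± 0.22 with an adjusted p of 0.918. Gjb6 (ENSMUSG00000040055, chromosome 14, 57360760 to 57371068, minus strand, mm39) had 37.2, 43.2, 33.3 and 34.8 FPKM in AstroCSF1KO SCI libraries, against 37.7, 33.3 and 33.1 FPKM in uninjured ones. These values overlapped, and the log2 change was 0.09, with a 95% interval of -0.13 to 0.31. In Control cords Gjb6 had 47.4, 41.3, 41.8 and 59.9 FPKM after injury, against 51.4, 34.1 and 30.5 FPKM in uninjured cords, again with overlap. Without the 3 libraries its Control change was 0.35 ± 0.10 with an adjusted p of 0.0636, and that of Gja1 was 0.35 ± 0.09 with an adjusted p of 0.0553.

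The genes for potassium uptake and the sodium pump showed no called change on injury. Kcnj10 (ENSMUSG00000044708, chromosome 1, 172168777 to 172201652, plus strand, mm39) had 150, 172, 181 and 172 FPKM in AstroCSF1KO SCI libraries, against 155, 168 and 165 FPKM in uninjured ones. The log2 change was 0.05, with a 95% interval of -0.13 to 0.23. In Control cords it had 153, 148, 160 and 149 FPKM after injury, against 147, 191 and 193 FPKM in uninjured cords, a change of -0.20 with an interval of -0.69 to 0.29. The injured Control values lay close together, and the low uninjured value was that of replicate 1, one of the 3 libraries. Without these the change was -0.31, with an adjusted p of 0.117. Atp1b2 (ENSMUSG00000041329, chromosome 11, 69490562 to 69496768, minus strand, mm39), a sodium pump subunit, had 338 to 396 FPKM in AstroCSF1KO SCI libraries, against 325 to 391 FPKM in uninjured ones, a log2 change of 0.08 with an interval of -0.13 to 0.29. In Control cords it had 195, 334, 351 and 214 FPKM after injury, against 189, 387 and 372 FPKM in uninjured cords, a change of -0.19 ± 0.37. The low values were those of the 3 libraries, without which the change was -0.15 ± 0.13 with an adjusted p of 0.462.

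Of the genes that take up and convert glutamate, only Glul passed the test, and its call was fragile. Glul (ENSMUSG00000026473, chromosome 1, 153775690 to 153785469, plus strand, mm39) had 376, 350, 310 and 335 FPKM in AstroCSF1KO SCI libraries, against 420, 444 and 386 FPKM in uninjured ones. The groups did not overlap, although 376 and 386 FPKM lay close together. The log2 change was -0.28 ± 0.09 with an adjusted p of 0.0289 by limma. It was -0.23 to -0.27, with adjusted p-values of 0.0694 to 0.115, without SCI replicate 3, SCI replicate 4, uninjured replicate 1 or uninjured replicate 2, each left out in turn. The call was also lost by limma with no filter on low values (adjusted p 0.116) and with scaling by total recovered reads (0.0761). In the model of all 14 libraries the adjusted p was 0.422. In Control cords Glul had 304, 370, 383 and 272 FPKM after injury, against 340, 435 and 412 FPKM in uninjured cords, a change of -0.26 ± 0.23 with an adjusted p of 0.977, and without the 3 libraries of -0.17 ± 0.14 with an adjusted p of 0.416. Slc1a2 (ENSMUSG00000005089, chromosome 2, 102489004 to 102621129, plus strand, mm39) had 127, 159, 157 and 144 FPKM in AstroCSF1KO SCI libraries, against 135, 142 and 149 FPKM in uninjured ones. The injured values enclosed the uninjured ones, and the log2 change was 0.04 with a 95% interval of -0.16 to 0.25. In Control cords Slc1a2 had 196, 120, 142 and 266 FPKM after injury, against 271, 166 and 189 FPKM in uninjured cords, a change of -0.24 ± 0.34, and without the 3 libraries of -0.44 ± 0.14 with an adjusted p of 0.0913. Slc1a3 (ENSMUSG00000005360, chromosome 15, 8663608 to 8740248, minus strand, mm39) had 15.4, 17.2, 19.0 and 16.9 FPKM in AstroCSF1KO SCI libraries, against 16.5, 13.1 and 13.6 FPKM in uninjured ones. The overlap came from uninjured replicate 1. The log2 change was 0.23 ± 0.10 with an adjusted p of 0.0814, and 0.0233 when that library was left out. Leaving out SCI replicate 1 gave an adjusted p of 0.0482. In Control cords Slc1a3 had 20.5, 16.97, 18.96 and 23.7 FPKM after injury, against 21.7, 15.4 and 14.8 FPKM in uninjured cords, a change of 0.21 ± 0.23, and without the 3 libraries of 0.24 ± 0.10 with an adjusted p of 0.143.

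Of the 2 marker genes, Sox9 passed the test in AstroCSF1KO cords and Aldh1l1 did not. Sox9 (ENSMUSG00000000567, chromosome 11, 112673050 to 112678586, plus strand, mm39) had 11.9, 11.6, 16.3 and 12.1 FPKM in AstroCSF1KO SCI libraries, against 9.02, 8.45 and 9.20 FPKM in uninjured ones. Every injured library was higher, replicate 3 by the most, and the log2 change was 0.49 ± 0.11 with an adjusted p of 0.00857 by limma. In Control cords Sox9 had 13.8, 13.2, 11.98 and 13.3 FPKM after injury, against 8.95, 10.6 and 11.4 FPKM in uninjured cords. It was the only member whose Control groups did not overlap, injured being higher, as for 7.79% of all genes, and its change of 0.32 ± 0.19 had an adjusted p of 0.787, against 0.18 ± 0.09 and 0.236 without the 3 libraries. Aldh1l1 (ENSMUSG00000030088, chromosome 6, 90463409 to 90577185, plus strand, mm39) had 19.2, 15.7, 16.7 and 17.2 FPKM in AstroCSF1KO SCI libraries, against 16.9, 17.4 and 15.2 FPKM in uninjured ones, a log2 change of 0.05 with a 95% interval of -0.13 to 0.24. In Control cords it had 7.92, 16.6, 18.4 and 6.12 FPKM after injury, against 5.07, 15.9 and 14.3 FPKM in uninjured cords. All 3 low values were those of the libraries that stand apart. The change was 0.06 ± 0.50, and 0.20 ± 0.10 with an adjusted p of 0.224 without them.

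In those 3 libraries the displacement of genes went with GC content, and the members with the lowest and the highest GC content stood at opposite ends. The cause of the displacement was not tested. Each library was set against the other libraries of its group that do not stand apart. Genes of the lowest quintile of GC content (up to 43.8%) had a median log2 difference of 0.62 to 0.93 in the 3 libraries. Genes of the highest quintile (from 55.6%) had one of -1.06 to -1.51. The other 11 libraries lay between -0.11 and 0.15 in both quintiles. Aqp4, with the lowest GC content of the 10 genes (41.4%), was higher by 0.64, 1.13 and 1.04 on the log2 scale in SCI replicate 1, SCI replicate 4 and uninjured replicate 1. Aldh1l1, with the highest (54.4%), differed by -1.05, -1.37 and -1.40 in the same libraries. The members between them did not follow the order of GC content. Gja1, with the second-lowest (42.2%), differed by 0.09, 0.26 and 0.46, less than Slc1a2 (45.3%) with 0.59, 1.03 and 0.61. Gjb6 (49.6%) differed by 0.19, 0.52 and 0.66 and Sox9 (49.3%) by 0.12, 0.07 and -0.27, against -0.31, -0.47 and -0.31 for Glul (49.2%). When each library was adjusted within 20 GC bins, the SD of log2 Aqp4 was 0.16 in place of 0.55 among Control SCI libraries and 0.09 in place of 0.60 among Control uninjured ones. The SD of Gja1 among Control SCI libraries was then larger, 0.30 in place of 0.13. After this adjustment, Aqp4 was called in the Control injury comparison, with a change of 0.98 and an adjusted p of 0.0151.

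**Figure D3:**
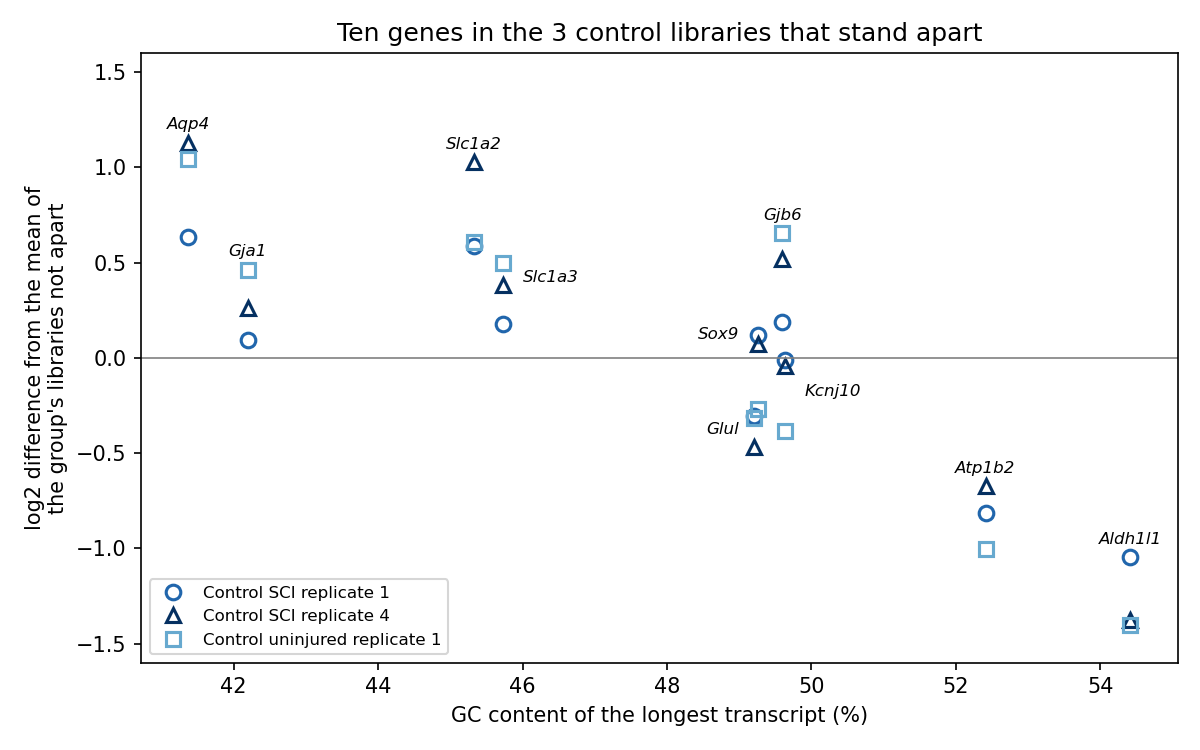
Log2 difference of each gene (y axis) in the 3 control libraries that stand apart, against the GC content of the longest transcript (x axis, %). Differences are from the mean of the group's libraries that do not stand apart. The points run from Aqp4 at 41.4% GC, above 0 in all 3 libraries, to Aldh1l1 at 54.4% GC, below -1 in all 3, with Gjb6 above its neighbours.

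Whether the deletion changed the members was asked in uninjured cords, in injured cords and as a difference between the injury changes. No member was called in any of them, nor was any of the 15155 genes by limma (0% in each), with 2.18%, 3.28% and 0.6% of genes at an unadjusted p under 0.05, 0 members among them, and with 0 genes called by voom. In uninjured cords, 3 members had AstroCSF1KO values below every Control value, namely Aqp4 (-0.76 ± 0.34, adjusted p 0.603), Slc1a2 (-0.52 ± 0.25, adjusted p 0.603) and Gja1 (-0.26 ± 0.20, adjusted p 0.603, turning to 0.11 after GC adjustment), as for 11.1% of all genes. Without Control uninjured replicate 1 the differences were -0.41 for Aqp4, -0.32 for Slc1a2 and -0.10 for Gja1, and the interval for Aqp4 was -0.71 to -0.12 with an adjusted p of 0.381. In injured cords no member's groups were apart, against 3.15% of all genes. Aqp4 differed there by -0.30, with a 95% interval of -0.96 to 0.36, and by 0.14, with an interval of -0.29 to 0.57, without the 3 libraries. Slc1a2 differed by -0.24 and, without the 3 libraries, by 0.16. Gjb6 differed by -0.34, with an interval of -0.73 to 0.05, and by -0.16, with an interval of -0.42 to 0.09, without the 3 libraries. Atp1b2 differed by 0.48, with an interval of -0.03 to 0.99, and by 0.11, with an interval of -0.10 to 0.31, without them. Aldh1l1 differed by 0.58 and, without them, by -0.02. The injury change of Aqp4 in AstroCSF1KO minus that in Control cords was 0.46, with an interval of -0.53 to 1.45 and an adjusted p of 0.99999. Without the 3 libraries this difference was 0.55, with an interval of 0.02 to 1.08 and an adjusted p of 0.344. There the differences for Slc1a2 (0.48) and Kcnj10 (0.36) both had an adjusted p of 0.311. Of the Control libraries then left, the uninjured ones expressed Xist and the injured ones Ddx3y, as given above. Both AstroCSF1KO groups held libraries of each kind. The mix of sexes thus differed between the genotypes wherever those Control libraries were left out. It was also uneven with all libraries, in the Control injury comparison and between the genotypes. Ddx3y was at 0 in Control SCI replicate 4 and in Control uninjured replicates 2 and 3. Among AstroCSF1KO libraries it was at 0 in SCI replicates 3 and 4 and in uninjured replicate 3. The part of sex was not tested.

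Among other genes of the same systems, most of those for transmitter uptake fell after injury. In AstroCSF1KO cords, 8 of the 11 transmitter uptake and glutamine genes fell and 2 rose, with a median log2 change of -0.43, against -0.03 over all genes. These and the list counts below are of called genes. Of all genes, 45.8% were called in that comparison, 19.7% higher and 26.1% lower. The GABA transporter Slc6a11 averaged 62.4 FPKM after injury, against 133 FPKM in uninjured cords (-1.08 ± 0.06, adjusted p 1.05e-05 by limma). The glycine transporter Slc6a9 averaged 20.99 FPKM after injury, against 34.6 FPKM in uninjured cords (-0.70 ± 0.09, adjusted p 0.000422). Some of these genes are also expressed by neurons. Without uninjured replicate 2, or without uninjured replicate 3, 6 of the 11 were called, and 1 in the model of all 14 libraries. In Control cords 0 of the 11 were called, where 1.04% of all genes were called. Using the replicate number as a block, 1 rose and 1 fell, where 1030 of all 15155 genes were called. Without the 3 libraries 6 fell and 1 rose, where 23.9% of all genes were called. Of 11 ion and volume genes, 3 rose and 2 fell in AstroCSF1KO cords, a share near that of all genes. With the replicate number as a block, 2 rose and 1 fell. In the model of all 14 libraries 0 were called, where 1141 of all 15155 genes were called. The pump regulator Fxyd1 averaged 36.6 FPKM, against 16.02 FPKM (1.15 ± 0.12, adjusted p 0.000201), and the potassium channel Kcnk1 32.1 FPKM, against 45.3 FPKM (-0.49 ± 0.09, adjusted p 0.00246). Kcnj16, which pairs with Kcnj10 in potassium channels, had a change of 0.06 and was not called. Of 10 water channel and endfoot genes, 1 rose, the dystrophin gene Dmd (0.34 ± 0.07, adjusted p 0.00458), and 1 fell, Aqp11 (-0.36 ± 0.08, adjusted p 0.00808). Both were below 3 FPKM, and 5 of the 10 were called without SCI replicate 2. In the model of all 14 libraries, and with a filter of at least 5 FPKM, 0 were called.

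Of 10 other connexin, pannexin and junction genes kept, 2 rose and 3 fell in AstroCSF1KO cords, near the 45.8% of all genes called there. Panx2 averaged 33.3 FPKM after injury, against 75.8 FPKM in uninjured cords (-1.16 ± 0.07, adjusted p 1.91e-05), and the neuronal connexin gene Gjd2 3.64 FPKM, against 7.44 FPKM (-0.86 ± 0.08, adjusted p 8.90e-05). Tjp1, the gene of a scaffold protein at junctions, averaged 19.2 FPKM, against 11.8 FPKM (0.65 ± 0.05, adjusted p 5.53e-05). Of 16 identity and metabolism genes, 5 rose and 6 fell. Clu, the gene of the secreted chaperone clusterin, rose by 0.89 ± 0.10, the growth factor receptor gene Fgfr3 had -0.54 ± 0.07 and the glypican gene Gpc5 -0.81 ± 0.11, with adjusted p-values of 0.000242, 0.000555 and 0.000711. Of 11 astrocyte transcription factors other than Sox9, 4 rose, among them Id4 (0.38 ± 0.07) and Glis3 (0.53 ± 0.11), and Hes5 fell (-0.75 ± 0.19), again a share near that of all genes. These 5 calls became 2 or 3 without SCI replicate 3, SCI replicate 4, uninjured replicate 1 or uninjured replicate 2. Glis3 and Hes5 averaged below 3 FPKM in both groups. In the model of all 14 libraries, 0 transcription factors, 1 connexin, pannexin or junction gene and 2 identity and metabolism genes were called. All 12 reactive astrocyte genes rose, with a median of 1.94. Serpina3n averaged 426 FPKM, against 30.3 FPKM (3.76 ± 0.12, adjusted p 2.11e-06), and Timp1 29.9 FPKM, against 0.933 FPKM (3.97 ± 0.16, adjusted p 4.41e-06). In Control cords 3 of the 12 rose (Serpina3n, Vim and Timp1), where 1.04% of all genes were called. Without uninjured replicate 2 or 3, 1 rose, where 15 and 17 of all genes were called. Using the replicate number as a block, 11 rose, where 1030 of all 15155 genes were called. Without the 3 libraries 12 of 12 rose, where 23.9% of all genes were called. Aqp4, with 1.49 in AstroCSF1KO cords, had the largest change of the 10 members, and 9 of the 12 reactive genes had larger ones.

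**Figure D4:**
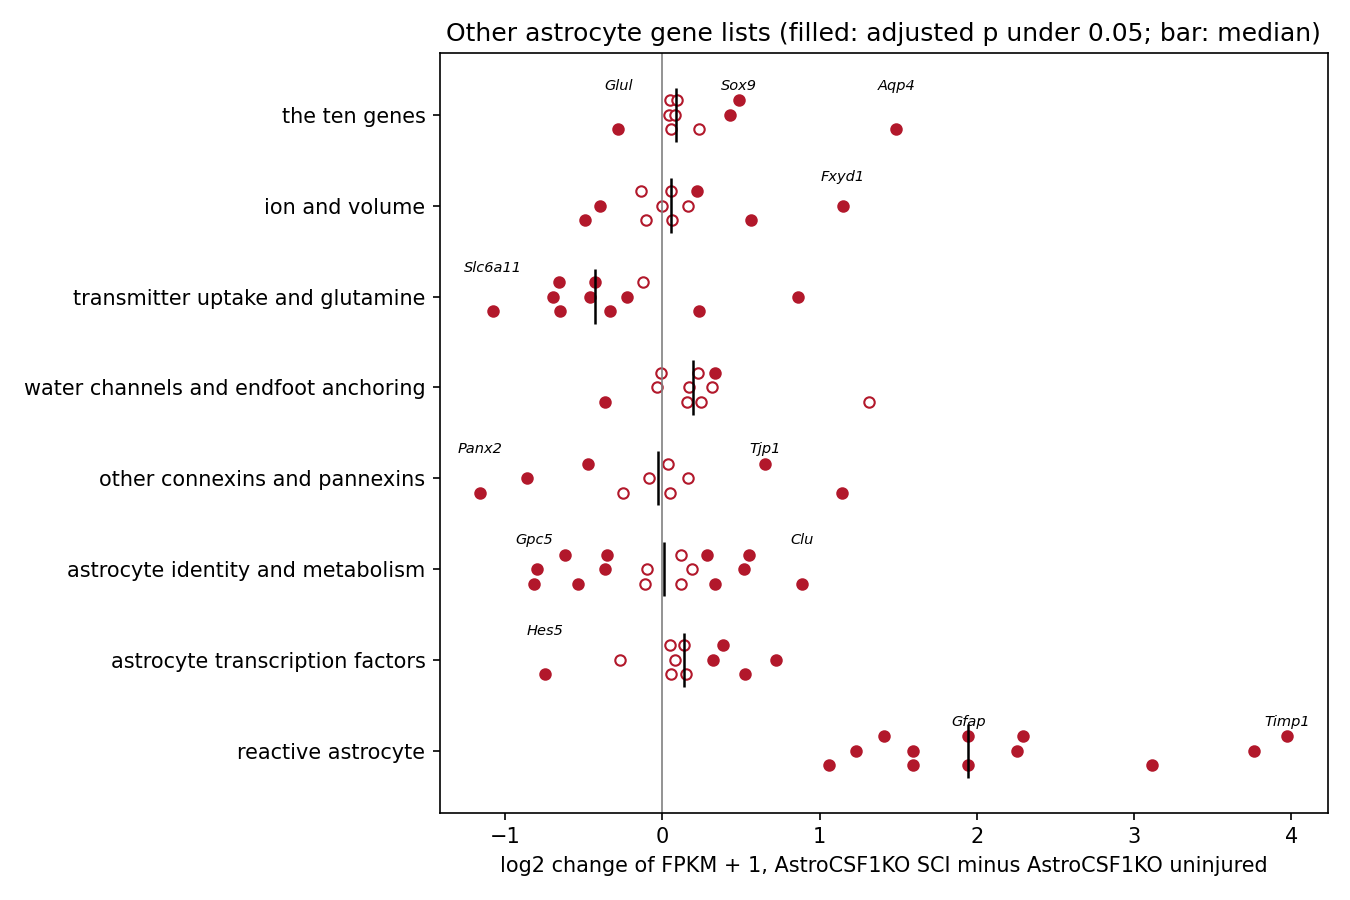
Log2 change on injury in AstroCSF1KO cords (x axis, SCI minus uninjured) of the 10 genes and of the genes of 7 other lists (y axis). Points are genes, filled at an adjusted p under 0.05, and vertical bars are list medians. The transmitter uptake list has a median of -0.43 and the reactive list of 1.94, and the 10 genes one of 0.08.

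The tissue changed in other cell types beside these genes. In AstroCSF1KO cords 11 of 11 microglia and macrophage markers, 6 of 6 fibroblast markers and 3 of 3 erythroid markers rose and 9 of 10 neuron markers fell. Of all genes, 19.7% were called higher and 26.1% lower there. Of 10 oligodendrocyte markers 1 rose and 1 fell, and of 5 oligodendrocyte precursor markers 3 rose and 1 fell. Among ependymal markers 1 of 6 rose, among Schwann cell markers 1 of the 4 kept rose, and among endothelial markers 0 of 7 were called. The summed level of the microglia and macrophage markers was 1339 to 1785 FPKM in AstroCSF1KO SCI libraries, against 144 to 181 FPKM in uninjured ones. That of the neuron markers was 882 to 1010 FPKM, against 1388 to 1651 FPKM, and that of the fibroblast markers 116 to 351 FPKM, against 12.7 to 31.0 FPKM. In Control cords the microglia and macrophage sum was 801 to 1408 FPKM after injury, against 113 to 167 FPKM in uninjured cords, and the neuron sum 812 to 1145 FPKM, against 1495 to 2013 FPKM. The erythroid markers, which come with blood, summed to 282 to 627 FPKM in AstroCSF1KO SCI libraries, against 27.3 to 55.7 FPKM in uninjured ones, and to 109 to 3523 FPKM in Control SCI libraries, against 22.9 to 35.1 FPKM in uninjured ones. Schwann cell markers, which come with nerve roots, summed to between 2.75 and 416 FPKM over all libraries, with overlap in both comparisons. The sum of 16 Hox genes of paralog groups 9 to 13, which mark the lower cord, was 45.5 to 60.9 FPKM in AstroCSF1KO SCI libraries, against 67.9 to 134 FPKM in uninjured ones, and 34.2 to 65.6 FPKM in Control SCI libraries, against 97.9 to 154 FPKM in uninjured ones. No marker of these lists was at 0 in all libraries of a group. The part of cell makeup and of the level of the cord in the members' changes was not tested. The summed level of the 10 members was 1335 to 1456 FPKM in AstroCSF1KO SCI, against 1223 to 1342 FPKM in uninjured libraries.

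Ratios within a library show how the members moved against each other. Aqp4 stood at 9.23, 15.4, 16.7 and 15.5 times the level of Aldh1l1 in AstroCSF1KO SCI libraries, against 4.33, 5.13 and 5.95 times in uninjured ones, all injured ratios being higher. In Control cords without the 3 libraries the ratio was 12.7 and 12 after injury, against 6.90 and 8.03 in uninjured cords, while the 3 libraries gave 42.3 and 77.2 (SCI) and 45.7 (uninjured). Gja1 to Gjb6 was 1.05, 1.14, 1.47 and 1.42 in AstroCSF1KO SCI libraries, against 0.937, 1.07 and 0.963 in uninjured ones. The lowest injured ratio lay below the highest uninjured one. Control cords had 0.953 to 1.17 after injury, against 0.997 to 1.18 in uninjured cords. Slc1a2 to Slc1a3 was 8.28, 9.26, 8.25 and 8.55 in AstroCSF1KO SCI libraries, against 8.16, 10.9 and 10.9 in uninjured ones, and 7.07 to 11.2 in Control SCI libraries, against 10.8 to 12.8 in Control uninjured ones. Both pairs of groups overlapped. Gfap to Aldh1l1 was 88.1 to 132 in AstroCSF1KO SCI libraries, against 24.2 to 34.7 in uninjured ones, and 96.9 to 167 in Control SCI libraries, against 34.7 to 36.9 in Control uninjured ones.

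**Figure D5:**
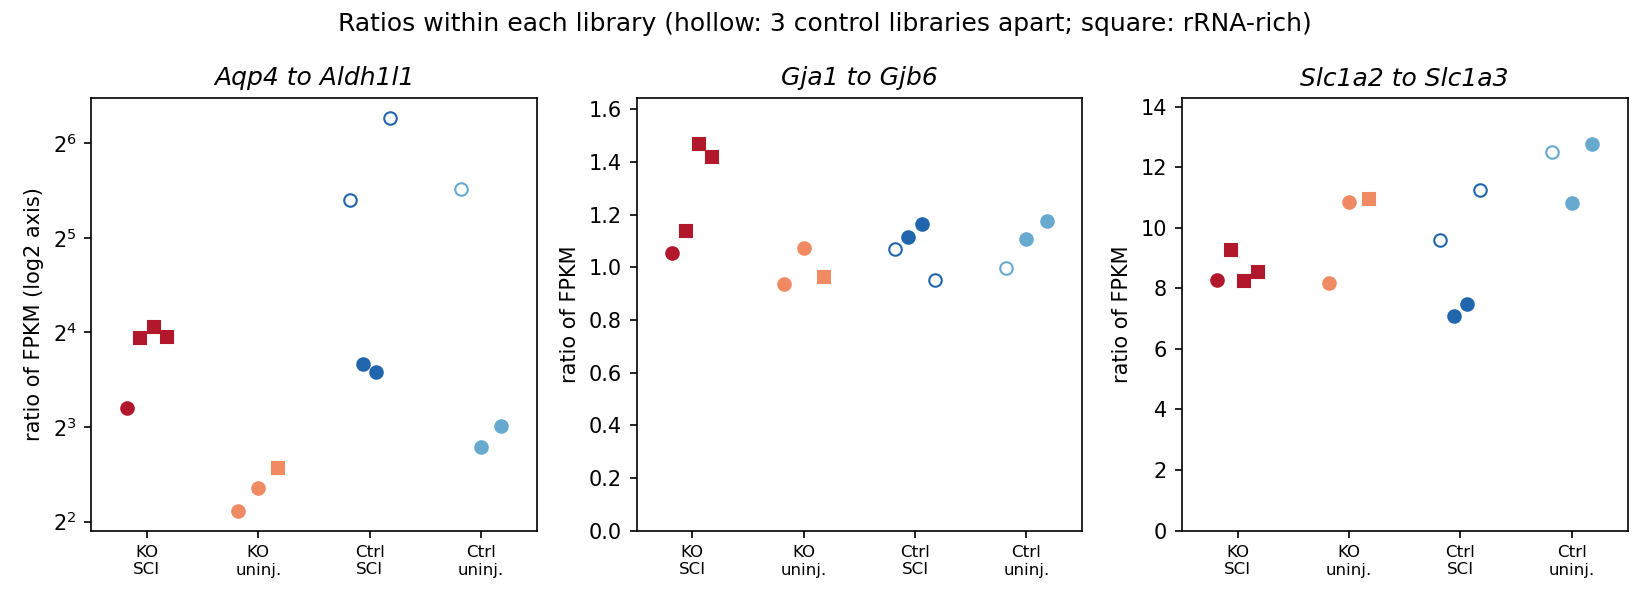
Ratios of FPKM within each library (y axes) of Aqp4 to Aldh1l1 (log2 axis), Gja1 to Gjb6 and Slc1a2 to Slc1a3, by group (x axis). Hollow points are the 3 control libraries that stand apart and squares the rRNA-rich libraries. For Aqp4 to Aldh1l1 the hollow points lie at 42.3 to 77.2, above the 4.33 to 16.7 of all other libraries.

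Among protein-coding genes, Rfx4 had the pattern most like the mean of the 10 members over the 14 libraries, with a Pearson r of 0.95, and 0.97 over the 11 libraries without the 3. Gna13 (0.91), Jam2 (0.89), Atp11a (0.89) and Ttf1 (0.88) came next. Of single members, Aqp4 was most like Nras (0.99), Sox9 most like Sall1 (0.96), Gja1 most like Ak3 (0.96) and Glul most like Xxylt1 (0.96). Aldh1l1 was most like Atf6b, with an r of 0.995 over 14 and 0.95 over 11 libraries. The points share libraries, depth and the GC displacement, Atf6b having a GC content of 60.3% and Nras of 42.6%, so these values are a description.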

How the data were processed

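Per the labels' protocols, 14 spinal cord libraries of poly(A) RNA were read in pairs of about 150 bp with no strand information, so a gene and an antisense partner cannot be told apart. The submitters' processing notes name CASAVA 1.8, HISAT2 and mm39; which program counted the reads is not given in the sources used here. Values deposited by the authors are FPKM per gene, with names, lengths and mm39 positions. Reads per gene were recovered as FPKM times length over the smallest such product of a library, and 100% of values were whole within 0.01. They gave depth and the voom alternative, and FPKM remained the tested values. The depth gave the least-covered member 276 reads in the library with fewest.

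Genes with at least 1 FPKM in at least 3 libraries were kept. Values were analysed as log2(FPKM + 1) in limma 3.58.1 (R 4.3.3) with an intensity trend, two-sided, and Benjamini-Hochberg adjustment over 15155 genes; log2 changes are on this scale and understate those of low genes. Comparisons of 2 groups used their libraries only, and the difference between injury changes used all 14. The code was checked on simulated data. GC content is that of the longest GENCODE M21 transcript, found for 98.2% of kept genes, and promoters are from RefSeq (GRCm38.p6), with coordinates of that build for promoters only.

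The members, the 7 other astrocyte lists, the marker lists, the rule for named genes and the set of 3 and of 4 libraries given apart were chosen with earlier results of these data known. Named genes are the members, up to 3 called genes of each list with the smallest p, the 5 genes most correlated with the members' mean and the 1 most correlated with each member; Kcnj16, marker genes, Csf1 and the Hox sum are named beside this rule, and some genes that it names are not reported here. Alternatives were a pseudocount of 0.1, no filter or one of at least 5 FPKM, other scalings, limma's voom on recovered reads with median-of-ratios library sizes, a replicate block, 1 model of all 14 libraries, subsets of libraries, each library left out in turn, and GC adjustment, which was added after the data were seen. The labels number replicates. Deviations from group means of libraries with the same number correlated at 0.616, 0.832 and 0.733 over genes between Control SCI and Control uninjured, above the 0.1 taken here as pairing; the highest correlations of the same libraries with another number were 0.831, 0.812 and 0.812, so the numbers do not set the pairs apart, and both replicates 1 stand apart; with the number as a block 1030 genes in place of 158 were called there and 0 members in either fit.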

Additional observations from a re-analysis of the deposited data

Results flagged for a closer look

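In AstroCSF1KO SCI cords, Gja1 had 39.2 FPKM in replicate 1, farther from the other libraries (48.9 to 49.4 FPKM) than Dixon's 95% limit for 4 samples allows. In the same group Sox9 had 16.3 FPKM in replicate 3, against 11.6 to 12.1 FPKM in the others. The ratio of Aqp4 to Aldh1l1 in this group was 9.23 in replicate 1, against 15.4 to 16.7 in the others. Replicate 1 is the library of this group that is not rRNA-rich, and the part of the rRNA share was not tested. Chance flags about 1 in 20 groups.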

How the results depend on the processing

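The calls of Aqp4 after injury in AstroCSF1KO cords held under every alternative run. The count of members called there was 4 and became 1 (Aqp4) in the model of all 14 libraries and 2 (Aqp4 and Sox9) with the 7 remaining libraries, in which 1 injured library is assumed to vary like the other groups; leaving out 1 library gave 3 to 5. In Control cords it was 0 and became 1 (Aqp4) without the 3 libraries, 4 (Aqp4, Gja1 and Gjb6 higher, Slc1a2 lower) with the 7 remaining libraries and 1 (Aqp4) after GC adjustment. Genes called in the Control injury comparison numbered 158, and 15 to 4648 under the alternatives; in AstroCSF1KO cords they numbered 6943, and 1141 to 7026. In the genotype comparisons and the difference between injury changes, no member was called under any alternative, and genes called numbered 0 to 15.

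With the replicate number as a block, the AstroCSF1KO injury comparison called 5622 genes and 3 members, Glul having an adjusted p of 0.0586; Aqp4 was at 0.0563 in Control cords, and the block changed no other member's call. Of the other lists, it called 3 in place of 5 ion and volume genes in AstroCSF1KO cords, and in Control cords 11 in place of 3 reactive, 2 in place of 0 transmitter uptake, 2 in place of 0 identity and metabolism and 1 in place of 0 ion and volume genes; other list counts stayed within 1.5 times. At least 1 same-number correlation was below 0.1 in each comparison other than Control injury, so the numbers do not pair samples there.

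Of 950 recomputed member changes, 56 turned in sign, 0 of them called in their own comparison; the cause was not tested. On leaving out 1 library at a time, the ranges that crossed 0 were, for Aldh1l1, -0.40 to 0.33 (Control injury), -0.28 to 0.46 (difference between injury changes) and -0.00067 to 0.092 (AstroCSF1KO injury); for Glul -0.11 to 0.082 (difference), -0.037 to 0.13 (genotype, injured) and -0.027 to 0.15 (genotype, uninjured); for Slc1a3 -0.14 to 0.12 and for Gja1 -0.016 to 0.23 (difference); for Sox9 -0.12 to 0.028 (genotype, injured); and for Atp1b2 -0.12 to 0.40 and Gjb6 -0.27 to 0.10 (genotype, uninjured). Without the 3 control libraries, the genotype difference in injured cords turned to -0.024 for Aldh1l1, 0.14 for Aqp4, -0.14 for Glul, 0.16 for Slc1a2 and 0.031 for Sox9, that in uninjured cords to -0.12 for Atp1b2, 0.10 for Gjb6 and -0.027 for Glul, and the difference for Slc1a3 to -0.0033. With the 7 remaining libraries, the turned values were -0.091 for Atp1b2 and 0.13 for Gjb6 (genotype, uninjured), -0.0025 for Glul and -0.041 for Kcnj10 (genotype, injured), -0.11 for Kcnj10 and -0.12 for Slc1a2 (AstroCSF1KO injury), and -0.22 for Gja1 and -0.18 for Slc1a3 (difference). GC adjustment turned Aldh1l1 to -0.0096 and Slc1a2 to -0.074 (AstroCSF1KO injury), Gja1 to 0.17 and 0.11 (genotype, injured and uninjured) and Slc1a3 to -0.00061 (difference). The difference for Slc1a3 was -0.055 with scaling by total reads, and that for Aldh1l1 0.0082 with median-ratio scaling and 0.032 with voom. Depth limited no member, but 3 or 4 libraries a group limit the size of change that can be called.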
